A study of Sus scrofa with 12 samples.

Results

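Class IIa histone deacetylases (HDACs), the MEF2 transcription factors they bind, and the salt-inducible kinases (SIKs) that act on them were followed in cultured porcine aortic valve interstitial cells (paVICs). The members were the rows of the deposited count table whose symbol was HDAC4, HDAC5, HDAC7, HDAC9, MEF2A, MEF2C, MEF2D, SIK1, SIK2, or SIK3. Of these 10 symbols, 9 had a row and all 9 passed the filter on low counts, out of 31908 genes in the table and 13216 tested. No row carries the symbol SIK1, so SIK1 is not counted among the members. RNA was sequenced from 12 libraries in 4 groups of 3 after 24 h of treatment. Vehicle cells received 0.6% DMSO and 0.1% EtOH, LPC cells received 10 μM lysophosphatidylcholine with the DMSO vehicle, dantrolene cells received 60 μM dantrolene with the EtOH vehicle, and LPC + dantrolene cells received both agents. LPC is a lipid that drives these cells to form calcific nodules, and dantrolene inhibits the ryanodine receptor, a channel that releases stored calcium. All cells were wild type, in low-serum medium, and each replicate number marks a separate isolation, made from the pooled valves of several pig hearts after the endothelial layer had been wiped off.

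Class IIa HDACs carry little deacetylase activity of their own and repress genes mainly by binding MEF2 factors in the nucleus and bringing in HDAC3 with its NCOR corepressors. Calcium-activated kinases, protein kinase D, and the SIKs phosphorylate them, after which adaptor proteins of the YWHA family hold them in the cytoplasm and MEF2 is free to activate its targets. HDAC9 is itself known as a MEF2 target, and it has been linked to calcification of vascular smooth muscle cells.

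The libraries held between 16489684 and 24105935 counts. All 12 listed markers of valve interstitial cells, among them VIM, COL1A1, and PDGFRB, were detected. The 6 leukocyte markers summed to 12.4 to 28.5 CPM, most of it from CD14 (10.3 to 24.5 CPM), while PTPRC and CD163 had 0 counts in every library. The cardiomyocyte markers summed to at most 0.871 CPM, with TNNT2 at 0 counts. Replicate 2 of LPC + dantrolene stood apart from the others, at −46.0 on the first principal component against −16.0 to 20.8 for the other 11 libraries. The calls of the members and of the pathway genes that changed without it are therefore also given without it, by value for members and by value or count for pathway genes. Levels below are CPM, in which each count is divided by the TMM-scaled size of its library, given as mean ± SD (n = 3), and differences are log2 fold changes from edgeR's quasi-likelihood test with p-values adjusted over all 13216 genes. A call means an adjusted p under 0.05. Since transcript lengths were not used, levels are compared between groups and not between genes.

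HDAC9 was the member that differed most among the treatments. It was highest with LPC and lowest with LPC + dantrolene. The vehicle libraries held 6.06, 5.78, and 7.21 CPM of HDAC9 for replicates 1, 2, and 3, and the LPC libraries 7.48, 10.5, and 17.9 CPM. With dantrolene the values were 3.50, 5.22, and 2.29 CPM, and with LPC + dantrolene 3.95, 1.31, and 1.66 CPM. All LPC libraries lay above all vehicle libraries, and with TMM scaling all 6 libraries with dantrolene lay below all vehicle libraries. Relative to total counts, dantrolene replicate 2 (137 of 24105935) lay above vehicle replicate 2 (99 of 19029059), so vehicle and dantrolene overlapped. These levels rest on 21 to 347 counts of HDAC9 per library, and a gene with 3 counts would be at 0.114 to 0.186 CPM.

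Between LPC and LPC + dantrolene, HDAC9 fell from 11.9 ± 5.34 to 2.30 ± 1.43 CPM, which is 5.16-fold lower. The log2 fold change was −2.37 (SE 0.43, 95% interval −3.22 to −1.51, adjusted p = 0.000623 from edgeR's quasi-likelihood test), and by its p-value HDAC9 ranked 8 of all genes tested. It was 1 of 9 members called here, where 0.507% of all genes were called and 0.288% were called lower. Within isolations 1, 2, and 3, the difference in log2 CPM was −0.91, −2.91, and −3.35, so it was lower in 3 of 3 isolations but least so in isolation 1. Without replicate 2 of LPC + dantrolene the log2 fold change was −2.10 (adjusted p = 0.00235, edgeR), and with the isolation as a block it was −2.39 (adjusted p = 0.0263, edgeR). On total counts alone, without TMM scaling, it was −2.24 and just missed the threshold (adjusted p = 0.0525, edgeR). The study singled out HDAC9 from these same libraries, so its call here is not independent support.

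Compared to vehicle, HDAC9 fell 2.74-fold with LPC + dantrolene, from 6.35 ± 0.755 to 2.30 ± 1.43 CPM (log2 fold change −1.46, SE 0.42, adjusted p = 0.0168 from edgeR's quasi-likelihood test). It was again 1 of 9 members called, against 7.14% of all genes in either direction and 0.9% lower. The log2 differences within isolations were −0.61, −2.06, and −2.06. This call was less stable than the one against LPC. Without replicate 2 of LPC + dantrolene the log2 fold change was −1.12 (adjusted p = 0.0528, edgeR), and without replicate 3 it was −1.26 (adjusted p = 0.154, edgeR). With the isolation as a block it was −1.48 (adjusted p = 0.0626, edgeR), and on total counts alone −1.19 (adjusted p = 0.145, edgeR).

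With the single agents HDAC9 lay on opposite sides of vehicle, but neither difference was called. With LPC the log2 fold change was 0.91 (SE 0.40, 95% interval 0.11 to 1.72), an adjusted p of 0.208 (edgeR), and the level was higher in 3 of 3 isolations, as the lack of overlap requires. It passed the threshold in a fit of vehicle and LPC libraries alone (adjusted p = 0.0248, edgeR), and when replicate 2 of LPC + dantrolene was left out (adjusted p = 0.0474, edgeR). Without replicate 3 of LPC it was 0.50 (adjusted p = 0.731, edgeR). With dantrolene the log2 fold change was −0.78 (SE 0.41, 95% interval −1.60 to 0.035, adjusted p = 0.345, edgeR), and the TMM-scaled level was lower in 3 of 3 isolations. Relative to total counts the level was higher with dantrolene in isolation 2. Between dantrolene and LPC + dantrolene the groups overlapped (log2 fold change −0.67, 95% interval −1.51 to 0.16, adjusted p = 1, edgeR).

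From highest to lowest, the order of HDAC9 was therefore LPC, vehicle, dantrolene, and LPC + dantrolene, and no neighbours in this order differed past the threshold. The difference between cells with and without LPC was 0.91 in the absence of dantrolene and −0.67 in its presence. The gap between these was −1.59 (SE 0.58) as an interaction and was not called either (adjusted p = 0.113, edgeR), except without replicate 1 of LPC + dantrolene, where it was −2.22 (adjusted p = 0.0182, edgeR).

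**Figure D1:**
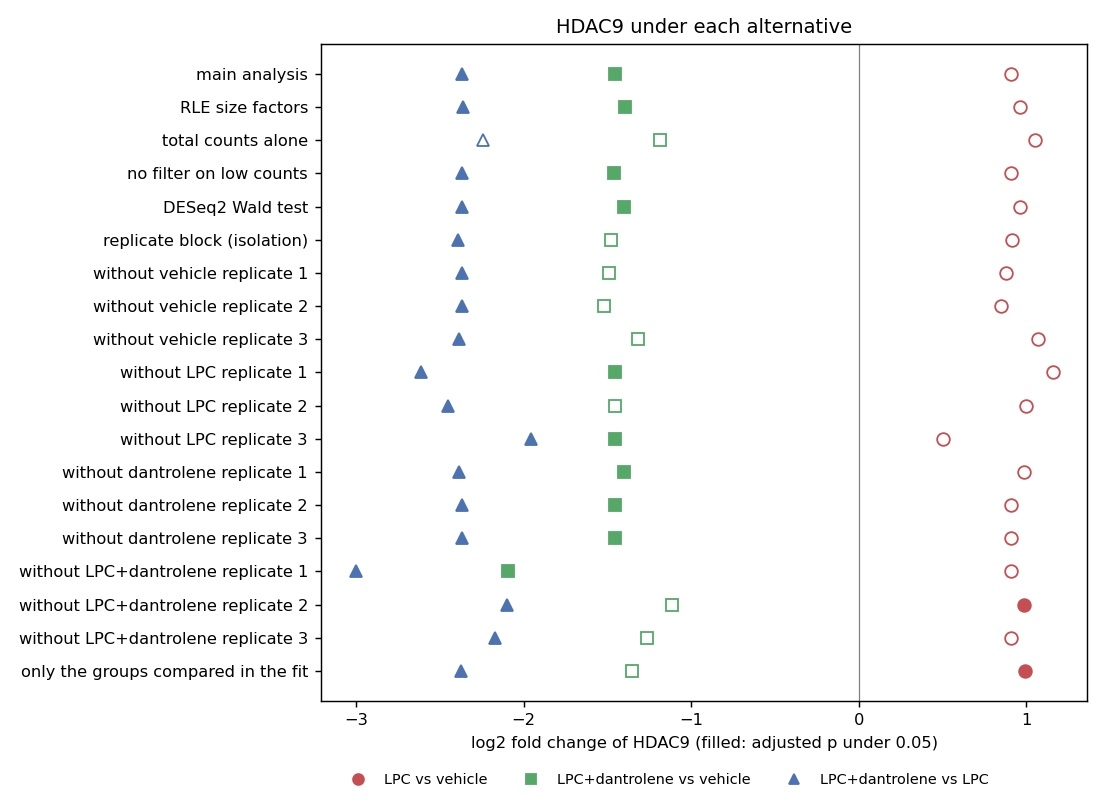
Log2 fold change of HDAC9 (x axis) in 3 comparisons under the main analysis and each alternative (rows), with filled symbols for an adjusted p under 0.05. LPC + dantrolene against LPC stays between −3.0 and −1.96 and is filled in all rows but total counts alone, while LPC + dantrolene against vehicle loses its filling in several rows.

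Relative to the other class IIa genes, which needs no scaling factor, HDAC9 followed the same order. Of the counts on HDAC4, HDAC5, HDAC7, and HDAC9 together, HDAC9 held 2.06%, 1.48%, and 2.02% in the vehicle libraries and 2.52%, 5.31%, and 6.22% in the LPC libraries. It held 1.52%, 1.82%, and 0.918% with dantrolene, and 1.68%, 0.397%, and 0.662% with LPC + dantrolene. The lowest of these shares has an exact 95% binomial interval from 0.246% to 0.607%, which covers counting error only. LPC libraries lay above the vehicle and the LPC + dantrolene libraries without overlap, with a two-sided exact permutation p of 0.1 in both comparisons, the smallest that 3 samples against 3 allow. This permutation took the libraries as unpaired, although the isolations pair them. The HDAC4 share also separated LPC + dantrolene (11.8% to 15.5%) from LPC (8.11% to 11.6%), in the opposite direction (exact permutation p = 0.1). Vehicle and dantrolene shares overlapped (exact permutation p = 0.3). Vehicle and LPC + dantrolene shares overlapped too (exact permutation p = 0.2), with 1.68% in replicate 1 of LPC + dantrolene against 1.48% in replicate 2 of vehicle. A gene's share also depends on its length, so these shares say how HDAC9 varied between libraries and not which gene is the most expressed.

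**Figure D2:**
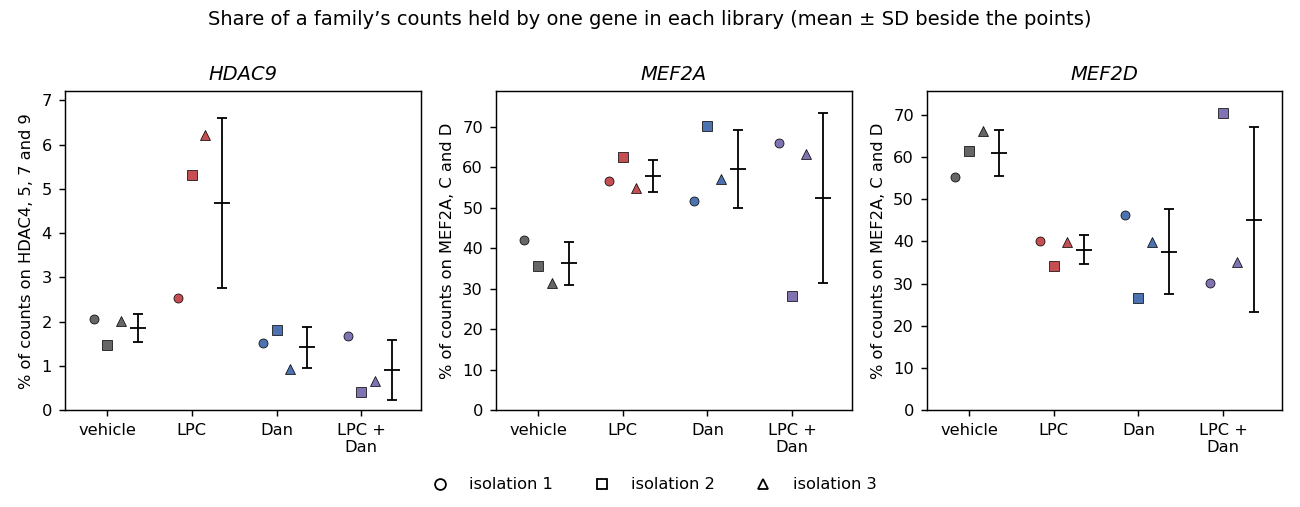
Percentage of the counts of a gene family (y axis) held by HDAC9, MEF2A, and MEF2D in each of the 12 libraries, with the isolation as symbol, Dan for dantrolene, and mean ± SD beside the points. HDAC9 reaches 6.22% with LPC and stays at or below 1.82% in all libraries with dantrolene, and replicate 2 of LPC + dantrolene has the lowest MEF2A share (28.1%) and the highest MEF2D share (70.4%) of the 12 libraries.

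Markers of endothelial cells moved along with part of this pattern. All 7 listed endothelial genes had a row, and their summed level was 84.0 to 87.5 CPM in vehicle, 63.0 to 71.2 in LPC, 47.9 to 66.0 in dantrolene, and 53.1 to 61.0 in LPC + dantrolene libraries. PECAM1 made up much of this sum, with a median of 36.2 CPM, while KDR never exceeded 5 counts. Of the endothelial genes tested, only CDH5 was called in any comparison. On TMM-scaled CPM the sum was thus lower with LPC than with vehicle, where HDAC9 was higher. It was also lower with LPC + dantrolene than with LPC, where HDAC9 was lower. Its part in the result was not tested, and in bulk samples fewer cells of a type cannot be told apart from less RNA per cell. The summed smooth muscle markers MYH11, CNN1, SMTN, and LMOD1 overlapped between LPC (1802 to 3105 CPM) and LPC + dantrolene (805 to 2683 CPM).

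HDAC9 (ENSSSCG00000015368) spans 1028404 bp on chromosome 9, from 87164400 to 88192803 in the RefSeq annotation of Sscrofa11.1, the build named in the submitters' processing notes. SIK2 and SIK3 lie on the same chromosome, from 39368555 to 39483519 and from 44223227 to 44471689. The HDAC9 gene also gives short products that lack the deacetylase domain, and gene counts do not separate them from the full-length form. Over the 12 libraries, the 5 genes with the most similar log2 CPM to HDAC9 were INHBA (Pearson r = 0.974), ESM1 (0.955), SORBS2 (0.938), CRIM1 (0.937), and TGFB2 (0.923). INHBA and TGFB2 encode ligands of the TGF-β superfamily, and CRIM1 encodes a membrane protein that binds BMPs. The closest member to HDAC9 was MEF2C, with r = 0.625, and 0.423 without replicate 2 of LPC + dantrolene. All these correlations share the same 12 libraries and scaling factors and are given as descriptions.

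**Figure D3:**
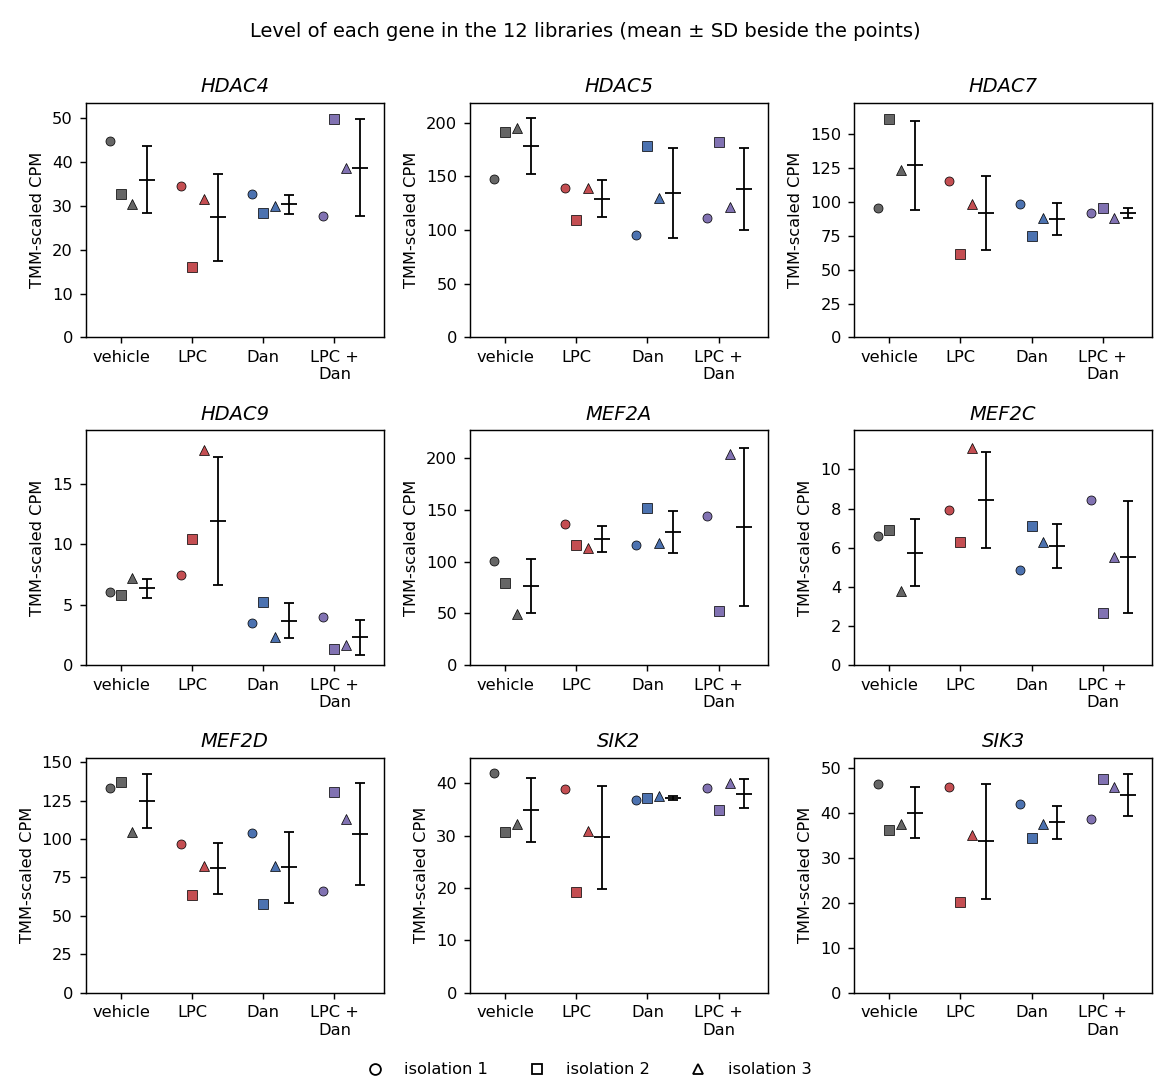
TMM-scaled CPM (y axis) of the 9 genes in the 4 groups (Dan, dantrolene), with 1 point per library, the isolation as symbol, and mean ± SD beside the points. HDAC9 is above vehicle in the 3 LPC libraries and below it in the 6 libraries with dantrolene, MEF2A is above vehicle in all treated libraries but replicate 2 of LPC + dantrolene at 52.1 CPM, and the SIK genes overlap.

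The other class IIa HDACs differed less than HDAC9 and were called in none of the comparisons. HDAC5, a repressor with broad expression that responds to calcium-activated kinases, was at 178 ± 26.3 CPM in vehicle cells and at 129 ± 17.2 CPM with LPC. Its vehicle libraries held 148, 191, and 195 CPM and its LPC libraries 139, 109, and 139 CPM, without overlap and so lower in 3 of 3 isolations (log2 fold change −0.46, 95% interval −1.10 to 0.17, adjusted p = 0.553, edgeR). Relative to total counts, LPC replicate 1 (2718 of 18050059) lay above vehicle replicate 1 (3097 of 22859544), so the groups overlapped. With dantrolene and with LPC + dantrolene HDAC5 was at 134 ± 41.7 and 138 ± 38.2 CPM, and both groups overlapped with vehicle.

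HDAC7, known for its role in endothelial cells and lymphocytes, was at 127 ± 32.9 CPM in vehicle cells and between 87.3 and 91.9 CPM in the means of the 3 treated groups. The log2 fold changes against vehicle were −0.47 with LPC, −0.54 with dantrolene, and −0.47 with LPC + dantrolene (edgeR's adjusted p = 0.544, 0.436, and 0.627), and without replicate 2 of vehicle, the highest library, they were −0.26, −0.33, and −0.26. Only LPC + dantrolene, with 88.4 to 95.5 CPM, did not overlap with the vehicle range of 96.0 to 162 CPM. Relative to total counts it did, with LPC + dantrolene replicate 1 (1745 of 16489684) above vehicle replicate 1 (2012 of 22859544). HDAC4, a repressor first studied in cartilage and muscle, was at 35.9 ± 7.66 CPM with vehicle, 27.4 ± 9.96 with LPC, 30.3 ± 2.20 with dantrolene, and 38.7 ± 11.0 with LPC + dantrolene. These 4 groups overlapped, and the HDAC4 difference between LPC + dantrolene and LPC had a 95% interval from −0.17 to 1.16 on the log2 scale.

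MEF2 factors bind AT-rich sites near muscle, stress, and growth factor genes. With either single agent, all libraries held more MEF2A and, on TMM-scaled CPM, less MEF2D than all vehicle libraries, although neither gene was called. MEF2A was at 101, 79.3, and 49.5 CPM in the vehicle libraries, 136, 116, and 113 CPM in the LPC libraries, and 117, 152, and 118 CPM in the dantrolene libraries. Both treated groups lay above vehicle without overlap, and so in 3 of 3 isolations each. The log2 fold change was 0.67 with LPC (SE 0.34, adjusted p = 0.324, edgeR), and 0.75 for dantrolene (SE 0.34, adjusted p = 0.212, edgeR).

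In the LPC + dantrolene libraries MEF2A was at 145, 52.1, and 204 CPM, and replicate 2 alone lay in the vehicle range. The log2 fold change against vehicle was 0.80 over all libraries (SE 0.34, adjusted p = 0.189, edgeR). Without replicate 2 of LPC + dantrolene it was 1.23 (adjusted p = 0.000845, edgeR), and the dantrolene difference also passed the threshold, at 0.81 (adjusted p = 0.0271, edgeR). The LPC difference was then 0.73 (adjusted p = 0.0562, edgeR). Thus 1 library decided whether MEF2A was called in 2 of the comparisons.

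MEF2D, a family member with broad expression, was at 133, 137, and 105 CPM with vehicle, 96.9, 63.3, and 82.4 CPM with LPC, and 104, 57.7, and 82.6 CPM with dantrolene. With TMM scaling neither treated group overlapped with vehicle, so MEF2D was lower in 3 of 3 isolations in both. The gap was narrow for dantrolene, at 104.2 CPM in replicate 1 against 104.5 in vehicle replicate 3. Relative to total counts both overlapped with vehicle. Replicate 1 of LPC (1891 of 18050059) and of dantrolene (1904 of 18155653) then lay above vehicle replicate 3 (1799 of 19585430). The log2 fold changes were −0.63 with LPC and −0.62 with dantrolene (SE 0.32 for both, adjusted p = 0.34 and 0.346, edgeR). With LPC + dantrolene MEF2D was at 66.2, 130, and 113 CPM and overlapped with every other group. Its interaction was 0.97 (SE 0.46, adjusted p = 0.292, edgeR), and 0.68 without replicate 2 of LPC + dantrolene (adjusted p = 0.555, edgeR).

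As a share of the counts on the 3 MEF2 genes, MEF2A held 36.3% ± 5.35 in vehicle, 57.9% ± 4.01 in LPC, and 59.6% ± 9.53 in dantrolene cells. Neither treated group overlapped with vehicle, and the unpaired exact permutation p of 0.1 in both comparisons was the smallest that 3 samples against 3 allow. MEF2D held 61.0% ± 5.50, 38.1% ± 3.38, and 37.6% ± 10.0 in the same groups. In the LPC + dantrolene group the MEF2A share was 66.0%, 28.1%, and 63.3% for replicates 1, 2, and 3, so replicate 2 lay below every vehicle library (31.3% to 42.0%). These shares do not depend on library scaling, but the 2 genes trade against each other in them by construction.

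MEF2C, best known for its role in heart and vessel development, was present at low levels, between 2.67 and 11 CPM, from 43 to 216 counts per library. It was at 5.75 ± 1.72 CPM with vehicle, 8.45 ± 2.45 with LPC, 6.08 ± 1.12 with dantrolene, and 5.54 ± 2.87 with LPC + dantrolene. All groups overlapped. The largest differences were 0.55 for LPC against vehicle (95% interval −0.23 to 1.34) and −0.61 for LPC + dantrolene against LPC (95% interval −1.39 to 0.18), with adjusted p of 0.564 and 0.877 (edgeR). The first was 0.31 without replicate 3 of LPC, and the second moved to −1.04 when replicate 1 of LPC + dantrolene was left out and to −0.29 when replicate 2 was.

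SIK2 and SIK3 are kinases that phosphorylate class IIa HDACs and the CRTC coactivators of CREB. They were the least variable of the members and were called in no comparison. SIK2 was at 35.0 ± 6.10, 29.7 ± 9.86, 37.2 ± 0.430, and 38.0 ± 2.7 CPM with vehicle, LPC, dantrolene, and LPC + dantrolene, and SIK3 was at 40.0 ± 5.61, 33.7 ± 12.8, 37.9 ± 3.71, and 44.0 ± 4.76 CPM. Replicate 2 of LPC was the lowest library for both, at 19.3 CPM of SIK2 and 20.2 CPM of SIK3, and it was also the lowest for HDAC4 (16 CPM) and HDAC7 (61.7 CPM). The 95% intervals of the differences from vehicle reached from −0.89 to 0.77 on the log2 scale for SIK2 and from −0.90 to 0.78 for SIK3.

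A row without a symbol in the count table (ENSSSCG00000035037) is SIK1 in a table of gene names. SIK1, whose transcription is induced by cyclic AMP and CREB, had 14.1 ± 5.05 CPM with vehicle, 15.8 ± 6.55 with LPC, 13.9 ± 5.09 with dantrolene, and 20.4 ± 6.91 with LPC + dantrolene, and all groups overlapped. Its largest difference was 0.55 for LPC + dantrolene against dantrolene (95% interval −0.16 to 1.26, adjusted p = 1, edgeR).

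**Figure D4:**
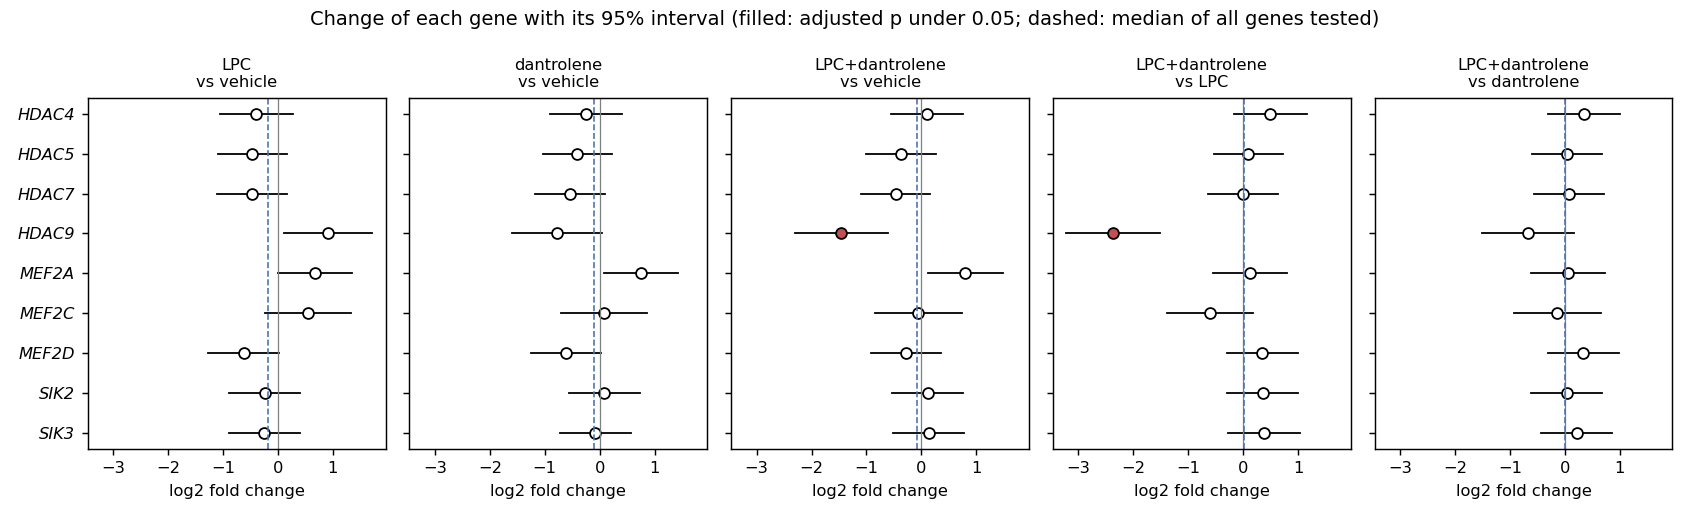
Log2 fold change (x axis) of each of the 9 genes with its 95% interval in 5 comparisons, filled where the adjusted p was under 0.05, with the median of all genes tested as a dashed line. Only HDAC9 is filled, at −1.46 for LPC + dantrolene against vehicle and at −2.37 against LPC.

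Counted over the members, 0 of 9 were called with LPC against vehicle in edgeR's test, where 8.69% of all genes were, and 0 of 9 with dantrolene, where 8.8% were. At an unadjusted p under 0.05 the counts were 1 of 9 in each (HDAC9 with LPC, MEF2A with dantrolene), where 15.9% and 16.2% of all genes passed, and DESeq2's Wald test also called 0. With LPC + dantrolene against vehicle and against LPC, 2 and 1 members had an unadjusted p under 0.05, where 14.5% and 6.61% of all genes did. Against dantrolene, 0 members were called by either tool and 0 had an unadjusted p under 0.05, where 0.0227% of all genes were called and 1.28% had such a p. For the interaction 0 were called by either tool and 2 had an unadjusted p under 0.05 (HDAC9 and MEF2D), where 4.65% of all genes were called and 14.5% had such a p. On TMM-scaled CPM, groups did not overlap for 4 of 9 members with LPC against vehicle and 3 of 9 with dantrolene, against 27.2% and 27.1% of all genes. The numbers were 2 of 9 for LPC + dantrolene against vehicle and 1 of 9 against LPC, where 10.4% and 9.78% of all genes did not overlap, and 0 of 9 against dantrolene, where 4.71% did not.

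The median log2 fold change of the 9 members against vehicle was −0.25 with LPC, −0.25 with dantrolene, and −0.052 with LPC + dantrolene, and that of all genes was −0.18, −0.11, and −0.080. On total counts alone the medians of all genes were −0.0023, 0.13, and 0.12, so the medians with TMM scaling differed from these by −0.17, −0.24, and −0.20. The 3 comparisons share their vehicle libraries. In spread over the 12 libraries, the SD of log2 CPM was 1.06 for HDAC9, above that of 90.5% of all genes tested, and 0.30 for SIK2, above 8.94% of them. The median over all genes was 0.44, and MEF2A at 0.60 and MEF2C at 0.53 were the other members above it.

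Among the members, HDAC4 and SIK3 had the most similar levels over the 12 libraries (Pearson r = 0.932), followed by SIK2 and SIK3 (0.899), HDAC4 and MEF2D (0.755), and HDAC4 and SIK2 (0.749), and without replicate 2 of LPC + dantrolene these were 0.944, 0.935, 0.715, and 0.847. RAPGEF1, an exchange factor for small GTPases, was the closest gene of all to HDAC4 (r = 0.975) and the fifth for SIK3 (0.942). For MEF2D the leading gene was FBRSL1 (0.954), and CRTC3 (0.943), one of the CREB coactivators that SIKs phosphorylate, came just ahead of PIEZO1 (0.939). MEF2A was most like SLC4A7 (0.992), CD164 (0.981), SOS1 (0.977), RIOK3 (0.976), and STRN (0.975). For HDAC5 the leading gene was CARS1 (0.976), for HDAC7 LLGL1 (0.974), for MEF2C PRRG4 (0.952), and for SIK2 WDFY3 (0.948).

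Genes around this pathway were taken from lists of kinases, phosphatases, YWHA adaptors, corepressors and coactivators, CRTC and CREB factors, MEF2 targets, and the other HDACs. Of 72 genes listed, 67 had a row and 63 were tested. Compared to vehicle, 7 were higher and 0 lower with LPC, 7 higher and 1 lower with dantrolene, and 5 higher and 1 lower with LPC + dantrolene. The called genes were 11%, 12.7%, and 9.52% of those tested. Of all genes, 8.54%, 7.54%, and 6.23% were higher and 0.144%, 1.26%, and 0.9% lower in these comparisons. DESeq2 called 6, 7, and 7 of them. Between LPC + dantrolene and LPC, 0 of 63 were called by edgeR, with 2 at an unadjusted p under 0.05, and 0 by DESeq2, and against dantrolene the count was 0 at either threshold and by either tool.

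Among the kinases, 2 of 15 tested rose with either agent alone. PRKD3, a protein kinase D that phosphorylates class IIa HDACs, was at 18.2, 14, and 10.7 CPM in vehicle libraries and 65.6, 59.2, and 54.4 CPM with LPC (log2 fold change 2.06, adjusted p = 1.97e-05, edgeR). It was at 32.0, 76.9, and 52.0 CPM with dantrolene and 65.8, 17.2, and 63.3 CPM with LPC + dantrolene (log2 fold changes 1.91 and 1.77, adjusted p = 9.5e-05 and 0.00031, edgeR), and replicate 2 of LPC + dantrolene lay in the vehicle range. PRKAA1, a catalytic subunit of AMP-activated kinase, rose by 1.51 in LPC and by 1.41 in dantrolene cells (adjusted p = 0.00121 and 0.00328, edgeR), and its difference was 1.05 with LPC + dantrolene, just outside the threshold (adjusted p = 0.0503, edgeR). Both kinases had a negative interaction, −2.20 for PRKD3 and −1.88 for PRKAA1 (adjusted p = 0.0034 and 0.0111, edgeR), so with both agents these kinases lay below the sum of the 2 single rises. Without replicate 2 of LPC + dantrolene the interactions were −1.86 and −1.58 (adjusted p = 0.00329 and 0.0096, edgeR), and on total counts alone they were −2.34 and −2.03 (adjusted p = 0.0432 and 0.0528, edgeR). Over all listed genes 3 were called for the interaction, all negative, where 4.49% of all genes were called negative, and 1 was called on total counts alone.

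Of the phosphatase and protein kinase A genes, 10 were tested. PPP3CA, the main catalytic subunit of the calcium-dependent phosphatase calcineurin, rose from 28.9 ± 8.54 CPM to 70.7 ± 0.432 in LPC, 71.3 ± 23.0 in dantrolene, and 65.3 ± 35.2 in LPC + dantrolene cells (adjusted p = 0.00684, 0.00702, and 0.0198, edgeR). RCAN2, a regulator that binds calcineurin, fell by 1.27 with LPC + dantrolene (adjusted p = 0.00919, edgeR). On total counts alone this was −1.02 and did not pass (adjusted p = 0.111, edgeR). Its difference with dantrolene was −0.97 (adjusted p = 0.0633, edgeR). Without replicate 2 of LPC + dantrolene it was −0.91 and passed the threshold (adjusted p = 0.021, edgeR). None of the 4 YWHA genes tested was called in any comparison by edgeR.

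Among 13 corepressors and coactivators, TBL1XR1, a subunit of the NCOR complex that class IIa HDACs bring to MEF2, was called in all 3 treatments. It rose from 8.25 ± 2.30 CPM to 30.7 ± 3.53 with LPC, 27.0 ± 7.44 with dantrolene, and 23.5 ± 14 in LPC + dantrolene cells (adjusted p = 0.000104, 0.00057, and 0.00287, edgeR), with 7.33 CPM in replicate 2 of LPC + dantrolene. Its interaction was −2.10 (adjusted p = 0.00615, edgeR), and it was −1.74 without that library (adjusted p = 0.00594, edgeR) and −2.21 on total counts alone (adjusted p = 0.0526, edgeR). CREB1 and ATF1, related factors that bind cyclic AMP response elements, were called in all 3 treatments too, out of 6 CRTC and CREB genes. CREB1 rose by 1.66, 1.39, and 1.53 with LPC, dantrolene, and LPC + dantrolene (adjusted p = 0.000783, 0.00678, and 0.0028, edgeR), and ATF1 by 1.10, 1.53, and 1.30 (adjusted p = 0.039, 0.0018, and 0.0116, edgeR). On total counts alone the ATF1 difference with LPC just missed the threshold, at 1.28 (adjusted p = 0.0546, edgeR).

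Of 9 MEF2 targets tested, only KLF2 was called, a flow-responsive factor that fell by 1.13 with dantrolene (adjusted p = 0.0256, edgeR) but was at −0.91 and not called on total counts alone (adjusted p = 0.131, edgeR). KLF2 was at 40.0, 28.7, and 53.1 CPM in vehicle and 28.3, 13, and 14.4 CPM in dantrolene libraries, with −0.53 for LPC and −0.75 for LPC + dantrolene that did not pass (adjusted p = 0.532 and 0.27, edgeR). Without replicate 2 of LPC + dantrolene, the KLF2 difference with LPC + dantrolene was −1.09 and passed (adjusted p = 0.0127, edgeR). With the isolation as a block, 0 listed genes were called lower with dantrolene, so the KLF2 call was lost. Of the 6 other HDACs, HDAC2, a class I enzyme, rose from 31.7 ± 8.12 CPM to 69.9 ± 6.51 in LPC cells and 66.9 ± 19.5 in dantrolene cells (adjusted p = 0.0159 and 0.0266, edgeR), and was at 57.6 ± 24.2 CPM with LPC + dantrolene (adjusted p = 0.125, edgeR). PRKD3, PRKAA1, PPP3CA, TBL1XR1, CREB1, ATF1, and HDAC2 were all within or below their vehicle range in replicate 2 of LPC + dantrolene. Without that library, the differences from vehicle with LPC + dantrolene lay between 1.22 for HDAC2 and 2.23 for PRKD3 and all 7 were called. In all, 8 listed genes were then higher and 3 lower with LPC + dantrolene, 10 were higher with LPC, and 7 were higher and 2 lower with dantrolene. With the isolation as a block, 3 were higher and 1 lower with LPC + dantrolene. The share of all genes called is given for the main fit only. Counts of listed genes from the other fits therefore cannot be read as a gain or loss of this pathway.

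**Figure D5:**
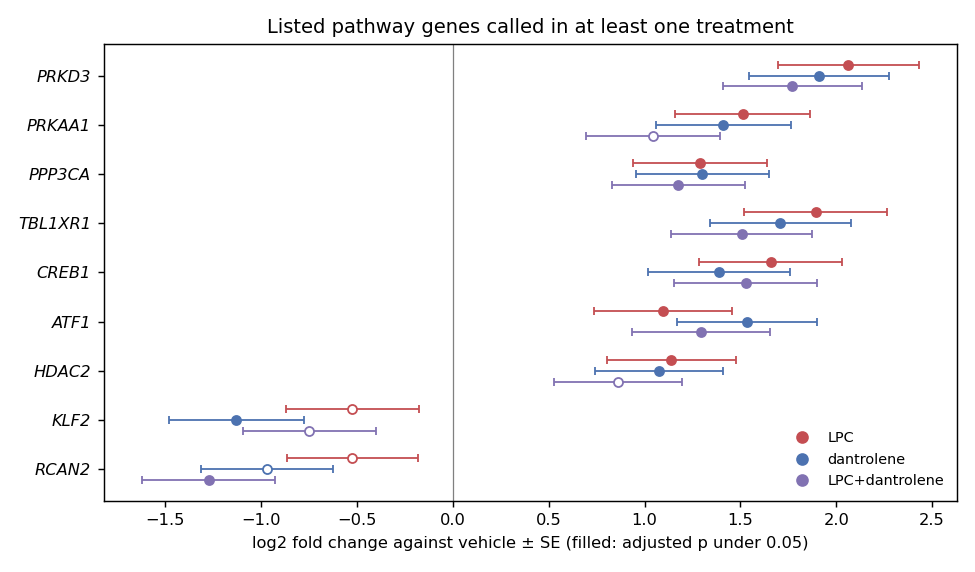
Log2 fold change against vehicle ± SE (x axis) of the 9 listed pathway genes called in at least 1 treatment, with filled symbols for an adjusted p under 0.05. PRKD3, PPP3CA, TBL1XR1, CREB1, and ATF1 are filled in all 3 treatments, and RCAN2 and KLF2 are the genes below 0.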

How the data were processed

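Poly-A RNA of 12 paVIC libraries was sequenced in 4 groups of 3. The authors aligned the reads (STAR per the paper's methods, HISAT2 2.0.5 per the submitters' processing notes, which also name Sscrofa11.1). They adjusted for batch effects with ComBat, and the paper's methods do not name the batch. The resulting counts per gene were deposited, which are whole numbers with no scaling to library size. Per the paper, each isolation was used in its own experiment on a different day, so isolation and day cannot be told apart. The counting tool and its use of strand are not given in the sources used here. The tests do not allow for the degrees of freedom that ComBat took up, which can make the adjusted p-values too small. Tables of the authors' own fold changes and p-values were not used.

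In R 4.3.3, genes passing filterByExpr (13216) were scaled with TMM factors (0.863 to 1.15) and fitted in edgeR 4.0.16 with glmQLFit, with all 12 libraries and the group as the only term, and tested with Benjamini-Hochberg adjustment over all genes. Standard errors are the log2 fold change over the root of F. Log2 CPM used a prior count of 2. The scripts were tested on simulated data. Alternatives were RLE factors, total counts alone, no filter, DESeq2 1.42.0, the isolation as a block, a fit of the compared groups alone, and leaving out each library.

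Members and gene lists were chosen with earlier results of these data known. Named were all members, up to 3 called genes per pathway list and comparison by smallest adjusted p, and for each member up to 5 genes with the highest Pearson correlation over the 12 libraries. Symbols of 4 listed genes came from a table of gene names. The labels give the isolation of each replicate, so same-numbered samples are pairs. Their deviations from the group means had a median correlation of −0.152 over 18 pairs of libraries, an outcome that an adjustment by isolation would itself fix.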

Additional observations from a re-analysis of the deposited data

How the results depend on the processing

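Of 963 values of single members under an alternative, 912 kept both direction and side of the threshold, 10 lost the threshold, 5 gained it, and 36 changed sign, none of which was called before or after. Leaving out 1 library moved 43 of the 54 member values by over 1.5 times or turned their sign. The number of members called between LPC + dantrolene and LPC fell from 1 to 0 on total counts alone. Against vehicle, LPC + dantrolene had 1 member called, and 0 on total counts alone, with the isolation as a replicate block, and in a fit of these groups alone, while LPC had 0 called, and 1 in a fit of its own groups alone. With 1 library left out the number lay between 0 and 1 for each treatment against vehicle and for the interaction. For HDAC9 against vehicle with LPC + dantrolene, these fits gave −2.09 to −1.12, and the call was lost without any 1 vehicle library, without LPC replicate 2, and without LPC + dantrolene replicate 2 or 3. The pairing by replicate block changed no other call of a member. The causes were not tested.

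Signs changed on total counts alone for SIK3 with dantrolene (0.15), MEF2C with LPC + dantrolene (0.22), and HDAC5 between LPC + dantrolene and dantrolene (−0.038). They changed with only the groups compared for MEF2C with LPC + dantrolene (0.068) and HDAC7 between LPC + dantrolene and LPC (−0.013), without the filter for the latter (−0.0032), and with the block for MEF2A between LPC + dantrolene and dantrolene (−0.0086). With 1 library left out, ranges crossed 0 for SIK3 with LPC (−0.53 to 0.015) and dantrolene (−0.15 to 0.040), MEF2C with dantrolene (−0.10 to 0.27) and LPC + dantrolene (−0.49 to 0.33), and HDAC4 with LPC + dantrolene (−0.068 to 0.30). Between LPC + dantrolene and LPC they crossed 0 for HDAC5 (−0.16 to 0.23), HDAC7 (−0.22 to 0.20), and MEF2A (−0.31 to 0.50). Between LPC + dantrolene and dantrolene they did so for HDAC5 (−0.22 to 0.30), HDAC7 (−0.025 to 0.16), MEF2A (−0.39 to 0.43), MEF2C (−0.57 to 0.19), and SIK2 (−0.0063 to 0.083).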
